A study of Mus musculus with 35 samples.

Results

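The proteasome is the multi-subunit protease that degrades ubiquitin-tagged proteins. Its genes were followed here in mouse zygotes and early two-cell (2C) embryos as every row of the deposited gene table whose symbol begins with Psma, Psmb, Psmc, Psmd, Psme, Psmf or Psmg and a number, provided that its counted fragments summed to at least 100 over the 35 samples. Of the 50 rows that matched by symbol, 45 passed that minimum, out of 24480 genes in the table. The 5 rows left out were Psme2b with 14 fragments, Psmb9 with 16, Psmb8 with 30, Psma8 with 73 and Psmb10 with 90. The rows just inside the limit were Psme1 with 115 and Psmg2 with 130. Among the 45 members Psmc3ip matches by its name only, as it encodes the meiotic recombination factor Hop2 and no proteasome subunit. It was left out of the levels and sums below but remains in counts over all members.

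Protein degradation by the proteasome depends on a barrel-shaped core particle, built of outer rings of alpha subunits (Psma genes) that gate the entrance and inner rings of beta subunits (Psmb genes) that hold the proteolytic sites. A regulatory particle docks on the ends of the barrel, where a ring of ATPases (Psmc genes) unfolds the substrate and non-ATPase subunits (Psmd genes) recognise and remove ubiquitin. Alternative caps, the activators encoded by Psme genes, open the same barrel without needing ubiquitin. In early mouse embryos the ubiquitin-proteasome system is known to take part in the clearance of maternally stored proteins.

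Embryos were wild type, of the inbred strain C57BL/6NRj, and pooled from several superovulated females. They had been injected with in vitro transcribed Kdm5b-yfp mRNA, coding for a fusion of yellow fluorescent protein with KDM5B, an enzyme that removes methyl groups from H3K4, or with nuclease-free water. The control zygotes (n = 10) and Kdm5b zygotes (n = 10) were injected in S phase and collected singly 17 h after ovulation. The 2C samples of the control group (n = 9) and the Kdm5b group (n = 6) came from cryopreserved and thawed zygotes, were injected in both blastomeres in G1 phase and were collected 5.5 to 8 h after division. Most 2C samples were single intact embryos (6 control, 5 Kdm5b), and the others were pools of blastomeres from 2 or 3 embryos. No mRNA encoding the fluorescent tag alone or an inactive enzyme was analysed here, so water is the only control. Libraries of the stages were made on separate days, so stage, thawing and library day cannot be told apart.

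Between 11627845 and 17797581 fragments were counted on genes per zygote, and between 8705584 and 13117592 per 2C sample, so values of weakly expressed genes rest on fewer fragments at the 2C stage. Levels are given as TPM, a gene's fragments per base of its exons scaled so that all genes of the sample sum to 1000000, computed after removal of the Kdm5b row. A TPM is a share of the sample's transcripts, and without a spike-in less RNA of 1 gene per cell cannot be told apart from more RNA of the other genes, nor from a different mix of cells.

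The injected gene matched the labels: the Kdm5b row held 2.72 to 13.7 CPM (fragments per 1000000 counted) in control zygotes and 23042 to 104494 CPM in Kdm5b zygotes, and 33.5 to 189 and 82689 to 157834 CPM in the 2C groups. The labelled stages were checked against marker genes. All 10 oocyte and zygote markers, such as Bmp15, Gdf9 and Zar1, were above a mean of 1 TPM in every group and summed to 5698 ± 578 TPM in control zygotes (SD, n = 10) and 3046 ± 802 TPM in control 2C samples (SD, n = 9), and to 6202 ± 772 and 3349 ± 751 TPM in Kdm5b zygotes (n = 10) and Kdm5b 2C samples (n = 6). The 9 markers of the 2C stage found in the table, among them Zscan4 genes, Zfp352 and Usp17lc, summed to 70.4 ± 24.9 TPM in control zygotes and 716 ± 307 TPM in control 2C samples, and to 75.3 ± 21.98 and 534 ± 213 TPM in the Kdm5b groups, with Usp17lc the most abundant in 2C samples. Markers of other cells that could have come along were low. The 8 leukocyte markers summed to group means of 6.48 to 13.1 TPM, with Laptm5 the most abundant. The highest sum of a single sample was 21.9 TPM in control 2C and 26.7 TPM in Kdm5b 2C samples, against 12.2 and 9.30 TPM in control and Kdm5b zygotes. Ptprc was at 0 in all zygotes and all Kdm5b 2C samples, and in control 2C samples it was at 0 in 6 of 9 and reached 11 fragments. The 10 cumulus cell markers summed to group means of 41.99 to 52.5 TPM, of which Nr5a2, a gene that embryos themselves express, had 46.6 TPM in control zygotes.

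The sequence upstream of the gene is shown for 4 members that the results turn on: a core alpha gene that fell between the stages (Psma6), a core beta gene that rose (Psmb6), the gene that was lower after Kdm5b injection (Psmd4) and the activator that rose most (Psme4). RefSeq promoters (GRCm38.p6, the 250 bases before the annotated start, written 5′ to 3′ on the gene's strand) were matched by symbol for 38 of the 45 members. Capitals mark matches to CCAAT, the box bound by NF-Y, or to TGACNNNGC, the core of the antioxidant response element through which NRF1 is known to act on proteasome genes, each searched on both strands.
Psma6 (chr12:55383972-55384221, plus strand): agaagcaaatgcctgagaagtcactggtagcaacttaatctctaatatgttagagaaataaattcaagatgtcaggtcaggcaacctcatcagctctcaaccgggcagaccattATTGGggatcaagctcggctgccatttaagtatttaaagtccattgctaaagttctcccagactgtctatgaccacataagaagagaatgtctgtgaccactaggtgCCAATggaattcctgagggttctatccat
Psmb6 (chr11:70525107-70525356, plus strand): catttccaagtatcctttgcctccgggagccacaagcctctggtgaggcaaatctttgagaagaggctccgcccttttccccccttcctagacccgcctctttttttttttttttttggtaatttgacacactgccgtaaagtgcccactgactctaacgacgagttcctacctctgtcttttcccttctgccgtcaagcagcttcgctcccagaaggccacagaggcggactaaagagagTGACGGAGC
Psmd4 (chr3:95042615-95042864, minus strand): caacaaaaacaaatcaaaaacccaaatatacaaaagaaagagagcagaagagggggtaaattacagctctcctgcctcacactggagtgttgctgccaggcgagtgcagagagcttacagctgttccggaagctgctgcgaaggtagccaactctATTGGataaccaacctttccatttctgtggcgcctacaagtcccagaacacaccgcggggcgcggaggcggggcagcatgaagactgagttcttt
Psme4 (chr11:30771525-30771774, plus strand): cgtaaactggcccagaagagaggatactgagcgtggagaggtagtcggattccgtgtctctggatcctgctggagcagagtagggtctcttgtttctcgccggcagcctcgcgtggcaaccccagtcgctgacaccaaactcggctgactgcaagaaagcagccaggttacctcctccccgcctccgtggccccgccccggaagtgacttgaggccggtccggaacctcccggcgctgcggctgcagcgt
A CCAAT match lay in 36.8% of the 38 member promoters and in 34.5% of 27025 promoters of the same length, and in 5 of the 7 core alpha promoters. Among these 7, Psma1 and Psma6 had 2 matches, Psma2, Psma3 and Psma7 had 1, and Psma4 and Psma5 had 0. TGACNNNGC matched in 13.2% of member promoters and in 10.1% of all. The genes were Psmb5, Psmb6, Psmc6, Psmd9 and Psmd12, and the Psmb6 match ended 1 base before the start. The Psme4 window held neither motif, and 0 of 38 member promoters held both, a number near the share of 3.3% of all promoters that did. Such matches describe the letters in the window and were not tested as binding sites.

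In control zygotes many proteasome genes were abundant, but the subunits were far from equal at the RNA level. Of 44 members, 19 had a mean level of at least 100 TPM, 19 lay between 10 and 100 TPM, 3 between 1 and 10 TPM and 3 under 1 TPM. In control 2C samples the corresponding numbers were 8, 28, 6 and 2. Psmd4, encoding the ubiquitin receptor Rpn10, was the highest in control zygotes, with 608, 723 and 1004 TPM as lowest, median and highest value, and its mean was above 98.6% of the 11883 genes at a mean of 1 TPM or more. Psme3, encoding the nuclear activator PA28gamma, followed with 465, 506 and 547 TPM. In control 2C samples Psme3 came first, above 98.9% of 12795 genes, then Psme4, above 97.7%, and Psmd4, above 97.01%.

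Levels spread widely within a ring. Among the 7 standard alpha subunits the mean level in control zygotes ran from 26.1 TPM for Psma5 to 423 TPM for Psma4, a 16.2-fold range, and among the 7 standard beta subunits from 3.83 TPM for Psmb5 to 139.9 TPM for Psmb7, a 36.5-fold range. The 6 ATPases lay closer together, from 74.99 TPM for Psmc3 to 338 TPM for Psmc1, a 4.51-fold range. In control 2C samples the ranges were 10.4-fold, 35.2-fold and 3.68-fold. Near-identical copies limit some of these levels. Of all 91-base stretches of the Psma5 transcripts, 31.7% also occur in other annotated genes, as do 27.2% of those of Psmb5, 22.04% of Psmb3 and 20.3% of Psma3, whereas the share was 0% for Psma7, Psmc5, Psmd4, Psme3 and Psme4. Fragments that map to several places were not counted under the counter's default, so the levels of the former genes are uncertain.

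Genes of the specialised proteasomes were at or near 0. The inducible catalytic subunits of the immunoproteasome, Psmb8, Psmb9 and Psmb10, had 12, 6 and 24 fragments over all 10 control zygotes and 6, 3 and 28 over the 9 control 2C samples. Psma8, the alpha subunit of the germ cell proteasome, had 28 and 3 fragments in these groups. The thymus subunit Psmb11 stayed at or under 0.810 TPM in control zygotes and 2.08 TPM in Kdm5b zygotes, and reached 3.14 TPM in 1 control 2C sample. Psme1, a subunit of the interferon-inducible activator PA28, was at 0 fragments in 6 of 10 control zygotes and 5 of 9 control 2C samples. Its partner Psme2 had 1.02, 3.44 and 7.12 TPM in control zygotes and 0, 0.291 and 10.4 TPM in control 2C samples, and 42.7% of its 91-base stretches are shared with its copy Psme2b.

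The first comparison was between the stages in embryos injected with water alone. In control 2C samples most core and regulatory genes were lower than in control zygotes, while the activators Psme3 and Psme4 were higher. The summed level of the 7 core alpha genes had a median of 1547 TPM (lowest 1319, highest 1651, n = 10) in zygotes and 309 TPM (lowest 230.4, highest 514, n = 9) in 2C samples, a 4.67-fold lower mean without overlap. The 8 core beta genes had 456 TPM (lowest 409.8, highest 505, n = 10) and 282 TPM (lowest 225, highest 437, n = 9), and here the ranges overlapped. For the 20 regulatory genes the median was 3403 TPM (lowest 2936, highest 3931, n = 10) in zygotes and 1562 TPM (lowest 1324, highest 1915, n = 9) in 2C samples, a 2.13-fold lower mean without overlap. The summed level of the 4 activator genes went the other way. Its median was 770.3 TPM (lowest 719, highest 815, n = 10) in zygotes. In 2C samples it was 1341 TPM (lowest 1145, highest 1446, n = 9), a 1.72-fold higher mean, again without overlap. Psme3 and Psme4 made up nearly all of this sum, with means of 508 and 256 TPM in control zygotes. In control 2C samples their means were 815 and 507 TPM. Psme1 and Psme2 had means of 0.530 and 3.54 TPM in control zygotes and 1.01 and 1.61 TPM in control 2C samples. The rise of the sum therefore does not describe Psme1 and Psme2.

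**Figure D1:**
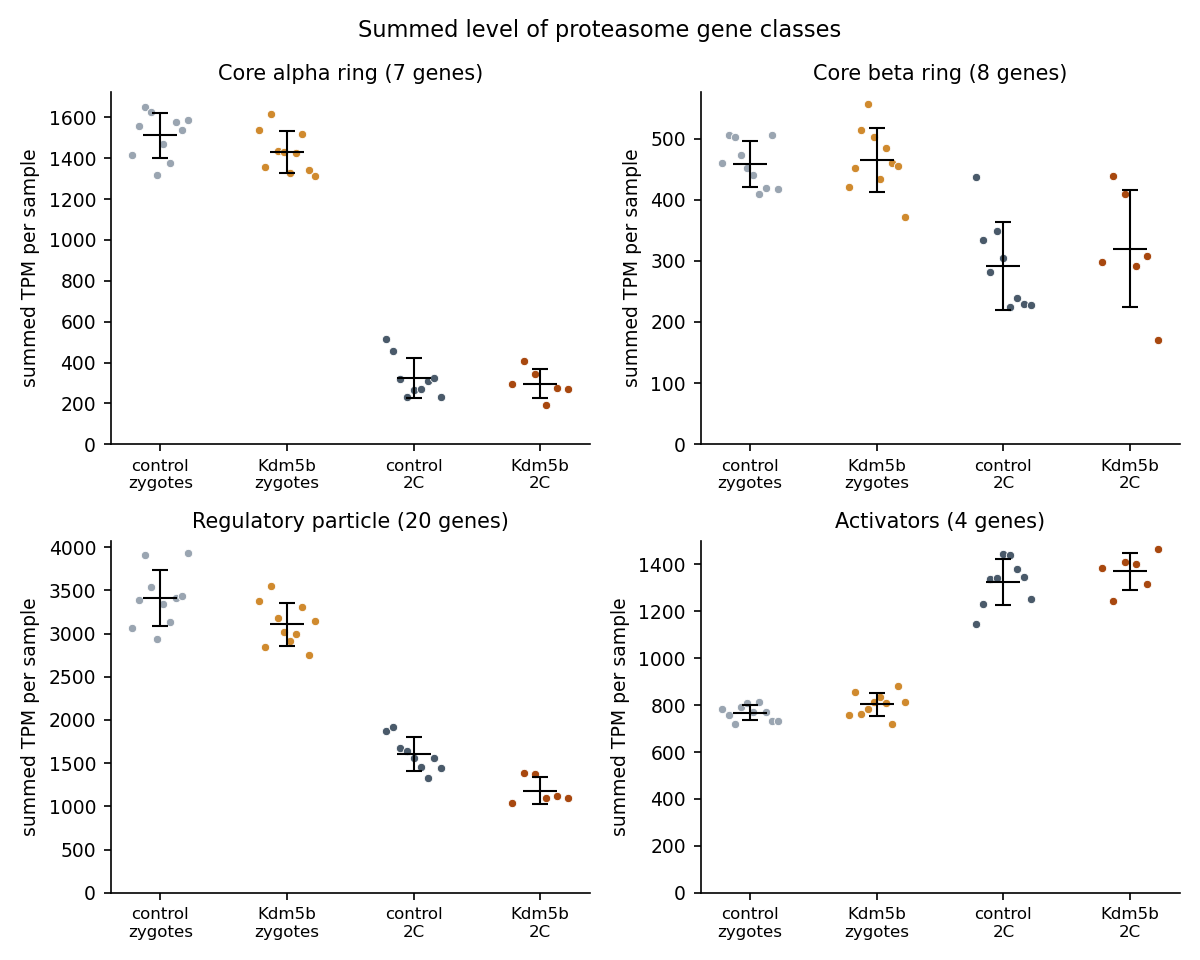
Summed TPM (vertical axis) of the core alpha, core beta, regulatory and activator genes in each sample (points), with the mean and SD of each group (bars), for 10 control zygotes, 10 Kdm5b zygotes, 9 control 2C and 6 Kdm5b 2C samples. For the alpha and regulatory genes all 2C samples lie below all zygotes, for the beta genes the stages overlap, and for the activators all 2C samples lie above all zygotes.

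As a share of the summed TPM of the 44 genes, the activators made up 12.2% ± 1.26 in control zygotes (SD, n = 10) and 36.7% ± 4.55 in control 2C samples (SD, n = 9). The core genes accounted for 31.1% ± 0.894 and 16.8% ± 2.92, and the regulatory genes for 53.8% ± 1.79 and 44.00% ± 2.48. Expressed as a ratio, the summed activator level was 0.393 ± 0.0414 of the core level in control zygotes and 2.27 ± 0.552 of it in control 2C samples.

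Gene by gene, 41 of the 45 members had enough fragments to be tested with the quasi-likelihood test of edgeR, with p-values adjusted by the Benjamini-Hochberg method over the 11968 genes tested and 0.05 as the limit. In control 2C samples 4 of them rose and 33 fell, where 26.8% of all tested genes were higher and 25.4% lower. With the further requirement of an absolute log2 fold change over 1, 1 rose and 23 fell, against 9.2% and 13% of all genes. The median log2 fold change was -1.33 over the members tested and 0.02 over all genes tested. The CPM of the groups did not overlap for 24 members, of which 21 were lower and 3 higher in 2C samples, where 10.5% of all tested genes were lower and 7.18% higher without overlap.

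All 7 core alpha genes fell, with a median log2 fold change of -2.05, and for 6 of them no 2C sample reached the lowest zygote, against the 10.5% of all genes given above. Psma5, with a median of 154.5 fragments per control zygote and 31 per control 2C sample (lowest 5), reached the count minimum through the zygotes. Its place among the 33 lower members therefore supports nothing. Psma7, which encodes the alpha4 subunit (chromosome 2, 180036367 to 180042464, minus strand, GRCm38), had 309, 353 and 402 TPM as lowest, median and highest value in control zygotes and 36.96, 59.3 and 131 TPM in control 2C samples. Every 2C sample was thus below every zygote, a 5.09-fold lower level (log2 fold change -2.35, SE 0.18, adjusted p = 7.65e-11 in edgeR). Psma4 (alpha3) fell from 309.9, 415 and 539.6 TPM to 58.3, 77.2 and 111 TPM, again without overlap (log2 fold change -2.31, SE 0.14, adjusted p = 2.04e-12). Psma2 (alpha2) had 348, 378 and 422 TPM and 40.2, 66.2 and 178 TPM and a log2 fold change of -2.12. Psma6 (alpha1), whose promoter is shown above with a pair of CCAAT matches, ranged from 142 to 224 TPM in zygotes and from 19.6 to 78.2 TPM in 2C samples (log2 fold change -2.05). Psma3 (alpha7) had the smallest change of the ring, from a median of 31.2 TPM to 14.9 TPM (log2 fold change -0.95, SE 0.18, adjusted p = 9.04e-05).

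The beta genes were less uniform. Of the 7 tested, 4 fell and 1 rose, and the subunits that carry the proteolytic sites differed among themselves. Psmb7, which encodes the trypsin-like beta2, fell from 116, 141 and 164 TPM to 21.9, 38.4 and 77.9 TPM without overlap (log2 fold change -1.58, SE 0.21, adjusted p = 4.94e-07). Psmb6, which encodes the caspase-like beta1 (chromosome 11, 70525357 to 70527858, plus strand) and carries the TGACNNNGC match next to its start, had 79.5, 90.9 and 109 TPM in zygotes and 77.02, 114 and 181 TPM in 2C samples. Its groups overlapped widely although it passed the test (log2 fold change 0.46, SE 0.14, adjusted p = 0.00798). Psmb5, which encodes the chymotrypsin-like beta5, was low in both groups, with medians of 3.63 and 2.90 TPM, and did not pass (log2 fold change -0.11, SE 0.72, adjusted p = 0.914). This value was not stable, as it was -1.64 with limma voom and 0.32 with single intact embryos only, and its sign changed in 6 of 19 fits that left out 1 sample. Among the non-catalytic beta genes the log2 fold change was -1.60 for Psmb4, -0.91 for Psmb2 and -0.90 for Psmb1, all of which fell, and 0.04 for Psmb3, which did not pass.

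**Figure D2:**
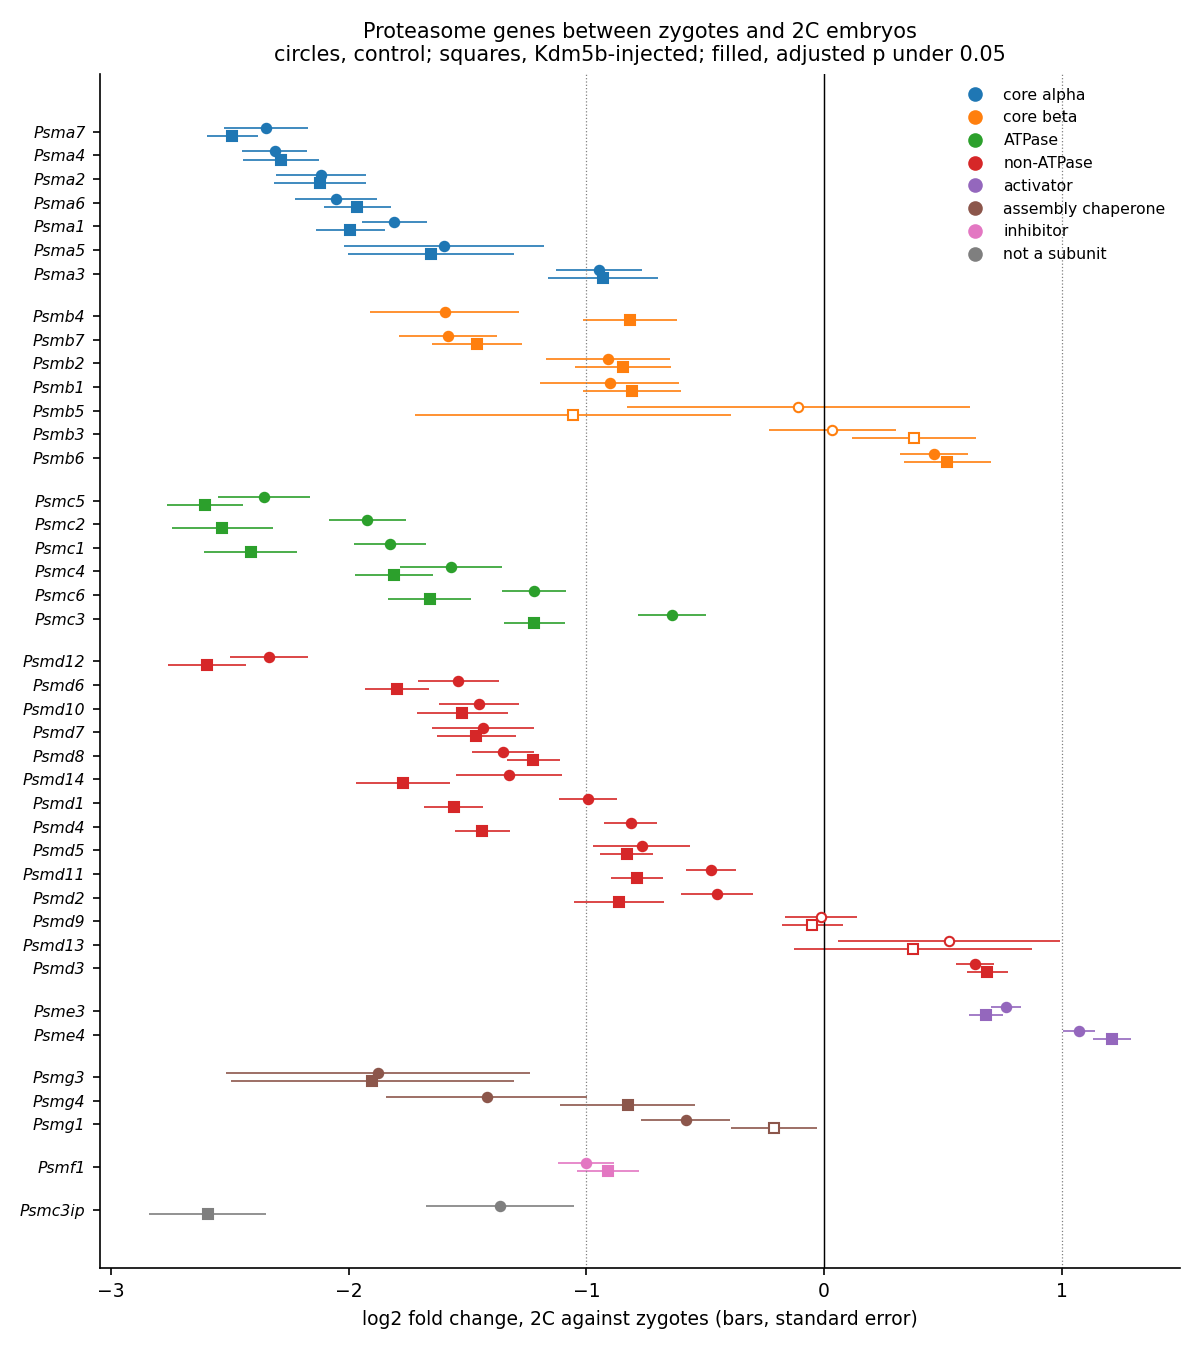
Log2 fold change between 2C samples and zygotes for each member tested in the controls, with its standard error as a bar, for control (circles) and Kdm5b-injected embryos (squares), filled where the adjusted p is under 0.05. The core alpha genes and the ATPases all lie below 0, whereas Psmb6, Psmd3, Psme3 and Psme4 are the filled points above it.

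In the ATPase ring of the regulatory particle all 6 genes fell, with a median log2 fold change of -1.70. Psmc5, which encodes Rpt6 (chromosome 11, 106256185 to 106263112, plus strand), had 248, 274 and 355 TPM in control zygotes and 27.1, 42.6 and 103 TPM in control 2C samples. No 2C value reached the zygotes, and the log2 fold change was the lowest of the members tested (log2 fold change -2.36, SE 0.19, adjusted p = 3.09e-10). Psmc1 (Rpt2), the most abundant ATPase gene in both groups, went from 275, 333 and 417 TPM to 52.9, 83.03 and 160.0 TPM (log2 fold change -1.83). Psmc3 (Rpt5) stood at the other end of the ring, at 65.3, 72.9 and 90.4 TPM against 22.8, 44.9 and 63.1 TPM (log2 fold change -0.64, SE 0.14, adjusted p = 5.12e-04).

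Of the 14 Psmd genes 11 fell and 1 rose. Psmd12 (Rpn5), a lid subunit, fell from 159, 210.0 and 246 TPM to 21.3, 39.9 and 67.7 TPM (log2 fold change -2.34, SE 0.16, adjusted p = 2.88e-11). Psmd14, the deubiquitinase Rpn11 of the lid, went from 29.9, 35.98 and 40.2 TPM to 6.98, 11.9 and 33.00 TPM, with 1 control 2C sample inside the range of the zygotes and the next highest at 14.1 TPM (log2 fold change -1.33). Psmd4 had a median of 723 TPM in zygotes and 399 TPM in 2C samples (log2 fold change -0.81, SE 0.11, adjusted p = 1.19e-06). The large scaffold subunit Psmd2 (Rpn1) changed from a median of 178 TPM to 118 TPM with overlapping groups (log2 fold change -0.45, SE 0.15, adjusted p = 0.0151). This call was lost with single intact embryos only (log2 fold change -0.41).

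Psmd3 (Rpn3), a further lid subunit (chromosome 11, 98682554 to 98695978, plus strand), was the Psmd gene that rose, with 131, 156 and 174 TPM in zygotes and 176, 227 and 259 TPM in 2C samples. The lowest 2C sample exceeded the highest zygote (log2 fold change 0.63, SE 0.08, adjusted p = 2.62e-07). Psmd13 (Rpn9), at medians of 3.47 and 4.00 TPM, did not pass (log2 fold change 0.53).

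Some Psmd genes encode chaperones that help to assemble the base of the regulatory particle. Of these, Psmd10 (gankyrin) fell from a median of 87.1 TPM to 29.4 TPM (log2 fold change -1.45) and Psmd5 from 87.2 to 48.5 TPM (log2 fold change -0.77). The third, Psmd9, had medians of 48.6 and 44.4 TPM and a log2 fold change of -0.01 that did not pass. The chaperones of core assembly Psmg1 and Psmg4 fell as well, with log2 fold changes of -0.58 and -1.42, each with overlapping groups. Another such chaperone, Psmg3, had a median of 53 fragments per control zygote and 8 per control 2C sample, with 3 of 9 at 0. It reached the count minimum through the zygotes, so that its place among the 33 lower members follows from the filter and supports nothing. The same holds for Psmg4, with medians of 100 and 24 fragments per sample in these groups and 1 control 2C sample at 0. Psmg2 had too few fragments to be tested. Psmf1, which encodes PI31, first described as an inhibitor of the core particle, fell from 61.7, 72.98 and 85.7 TPM to 22.1, 31.9 and 48.7 TPM without overlap (log2 fold change -1.001, SE 0.12, adjusted p = 1.06e-07).

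The activator genes that could be tested, Psme4 and Psme3, rose. Psme4, which encodes PA200, an activator linked to the degradation of acetylated histones (chromosome 11, 30771775 to 30880361, plus strand), stood at 240.0, 256 and 269 TPM in control zygotes and 437, 505 and 587 TPM in control 2C samples. The groups were far apart, with a 2.11-fold higher level (log2 fold change 1.07, SE 0.07, adjusted p = 4.09e-12 in edgeR). Psme3 (chromosome 11, 101316251 to 101323531, plus strand), whose product PA28gamma forms the nuclear cap, rose from 465, 506 and 547 TPM to 705, 810.2 and 928 TPM, also without overlap (log2 fold change 0.77, SE 0.06, adjusted p = 3.40e-10). The ratio of Psme3 to Psme4 in TPM was 1.99 ± 0.0777 in control zygotes and 1.62 ± 0.162 in control 2C samples (SD, n = 10 and 9). Psme1 and Psme2 had too few fragments to be tested.

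**Figure D3:**
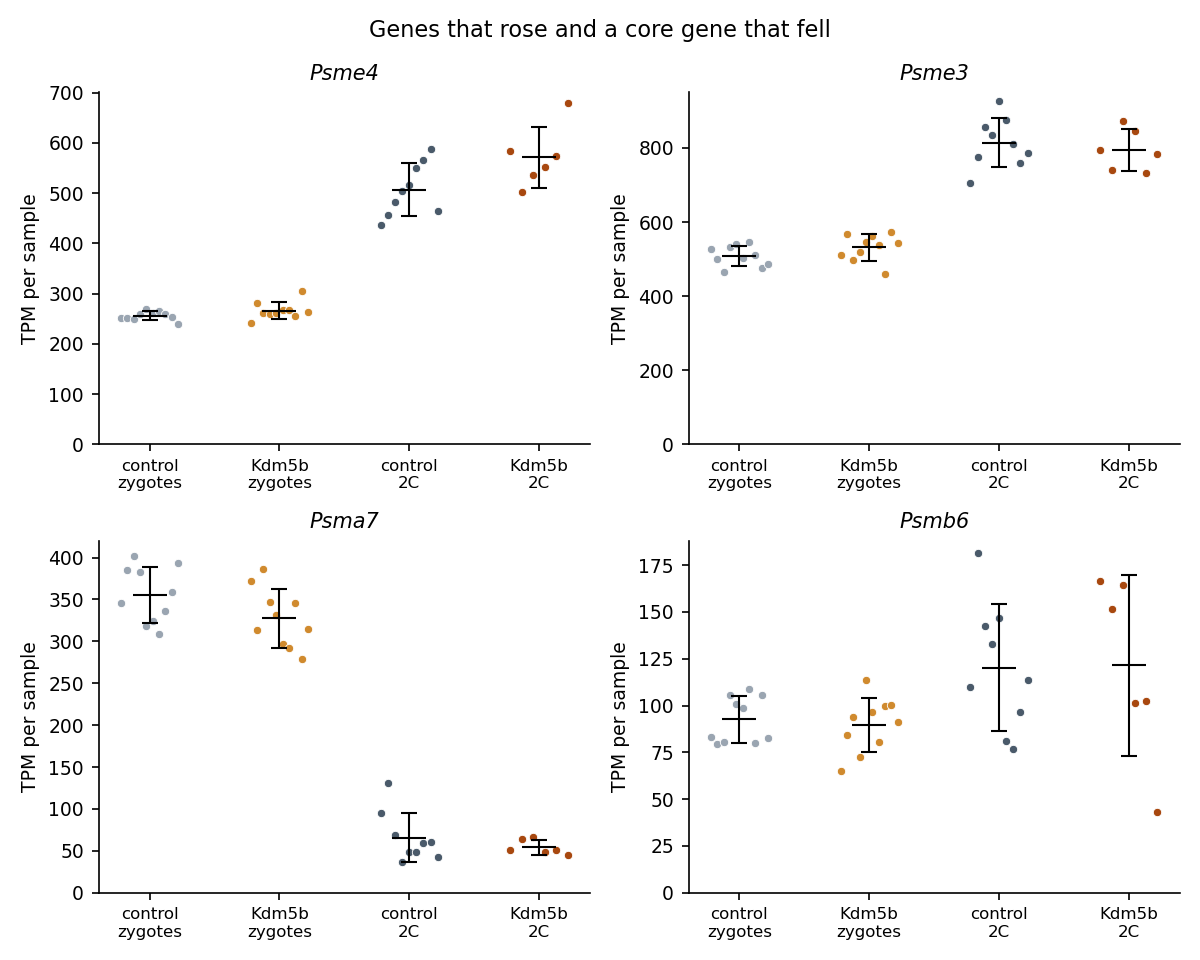
TPM of Psme4, Psme3, Psma7 and Psmb6 in each sample (points) with the mean and SD of each group (bars). Psme4 and Psme3 are higher and Psma7 is lower in all 2C samples than in all zygotes of the same injection, whereas the values of Psmb6 overlap.

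The stage difference was then examined in the Kdm5b-injected embryos, which share no sample with the controls. Here 43 members were tested, of which 4 rose and 33 fell, against 29.3% higher and 29.5% lower of all 12390 genes tested. The median log2 fold change was -1.44 over the members and 0.01 over all genes. The 41 members tested in both injections had the same sign in both, as did 86.2% of all 11819 genes tested in both. Past the limit in both were 36, of which Psmb6, Psmd3, Psme3 and Psme4 rose and 32 fell, where 23% of all genes rose and 23.2% fell in both. In the Kdm5b embryos Psmb6 was lost with voom, with the replicate numbers as a block and without Kdm5b 2C replicate 1, 2 or 3. Psmg4 was lost with voom, with that block and in the fit over all 35 samples. Psmg3 is among the 32 and reached the count minimum through the zygotes here too, with a median of 40.5 fragments per zygote and 3.5 per 2C sample. The signs of Psmb5, Psmd9 and Psmd13, which passed in neither, changed under some of the other settings. Psmg1 passed in the controls and not in the Kdm5b embryos, where the log2 fold change was -0.21 (adjusted p = 0.335 in edgeR), although it passed without Kdm5b 2C replicate 2 (log2 fold change -0.43). The difference between the injections did not pass for Psmg1 in the interaction described below (log2 difference 0.39, SE 0.26, adjusted p = 0.703 in edgeR). Psmb11 was tested in the Kdm5b embryos alone, with a median of 16 fragments per zygote and 1 per 2C sample. It reached the count minimum through the zygotes only, so that its place among the 33 lower members follows from the filter and supports nothing.

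Psma7 fell from 279, 323 and 386 TPM in Kdm5b zygotes to 44.6, 51.2 and 65.96 TPM in Kdm5b 2C samples (log2 fold change -2.49, SE 0.11, adjusted p = 1.26e-14). Psmc5 went from 228, 264 and 314 TPM to 29.8, 34.1 and 66.1 TPM (log2 fold change -2.61, SE 0.16, adjusted p = 2.84e-12). Each of the 6 ATPases lay below its lowest Kdm5b zygote in all Kdm5b 2C samples, where 16.1% of all tested genes were lower without overlap (median log2 fold change -2.11). Psme4 rose from 241, 262 and 305 TPM to 501, 564 and 679 TPM (log2 fold change 1.21, SE 0.08, adjusted p = 8.31e-12). For Psme3 the values were 459, 540.3 and 573 TPM and 731, 789 and 873 TPM (log2 fold change 0.68, SE 0.07, adjusted p = 1.68e-08). The activators made up 13.5% ± 1.48 of the summed TPM in Kdm5b zygotes (SD, n = 10) and 42.2% ± 4.84 in Kdm5b 2C samples (SD, n = 6).

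The effect of the injection within a stage was the comparison for which the embryos had been injected. In zygotes no member passed: of 43 tested with edgeR, 0 rose and 0 fell, where 0.0168% of all 11933 genes tested were higher and 0.117% lower. At an unadjusted p under 0.05 there were 7 members, 1 higher and 6 lower, against 10.3% of all genes. DESeq2 and voom also called 0 members, but they called few genes at all. DESeq2 called 0.168% of all genes higher and 0.687% lower, and voom 0.0168% and 0.109%. The median log2 fold change was -0.08 over the members and 0.01 over all genes, and 30 of 43 members were negative. Psmd4 had 608, 723 and 1004 TPM in control zygotes and 522, 619 and 838 TPM in Kdm5b zygotes. The groups overlapped, and its p was the smallest among the members (log2 fold change -0.27, SE 0.09, adjusted p = 0.252). The summed core level was 1969 ± 130.1 TPM in control and 1895 ± 132 TPM in Kdm5b zygotes, the regulatory level 3410 ± 327 and 3107 ± 252 TPM and the activator level 768 ± 33.3 and 803 ± 48.1 TPM (SD, n = 10 each), with overlapping ranges.

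In 2C embryos 1 of the 41 members tested fell and 0 rose, where 0.0245% of all 12244 genes tested, or 3 genes, were lower and 0 were higher. The member that fell was Psmd4 (chromosome 3, 95032691 to 95042614, minus strand), the gene of the ubiquitin receptor Rpn10. In the 9 control 2C samples it had 318, 399 and 554 TPM as lowest, median and highest value, and in the 6 Kdm5b 2C samples 163, 209 and 284 TPM. Each Kdm5b sample was below each control sample (log2 fold change -0.88, SE 0.14, adjusted p = 0.0175 in edgeR). The change stayed under 1 on the log2 scale. Psmd4 was 25.8% ± 3.18 of the summed regulatory TPM in control 2C samples (SD, n = 9) and 18.6% ± 3.70 in Kdm5b 2C samples (SD, n = 6).

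The groups were not spread evenly over the library index numbers of the labels. For this report these numbers were divided into runs of 8, here called strips. The labels name no strips, and whether they mark a handling batch is not stated. In 1 strip 5 Kdm5b 2C samples had 163 to 258 TPM of Psmd4 and 3 control 2C samples 399 to 554 TPM (log2 fold change -1.17, adjusted p = 0.0255 in edgeR, a fit chosen after seeing the data that called 0.813% of all genes lower). In the other strip 6 controls had 318 to 451 TPM and the single Kdm5b sample 284 TPM. With single intact embryos only, the log2 fold change was -0.94 and no longer passed (adjusted p = 0.199 in edgeR). Leaving out 1 sample at a time gave adjusted p-values of 0.0140 to 0.0847, and the call was lost without Kdm5b 2C replicate 1, 4 or 6.

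**Figure D4:**
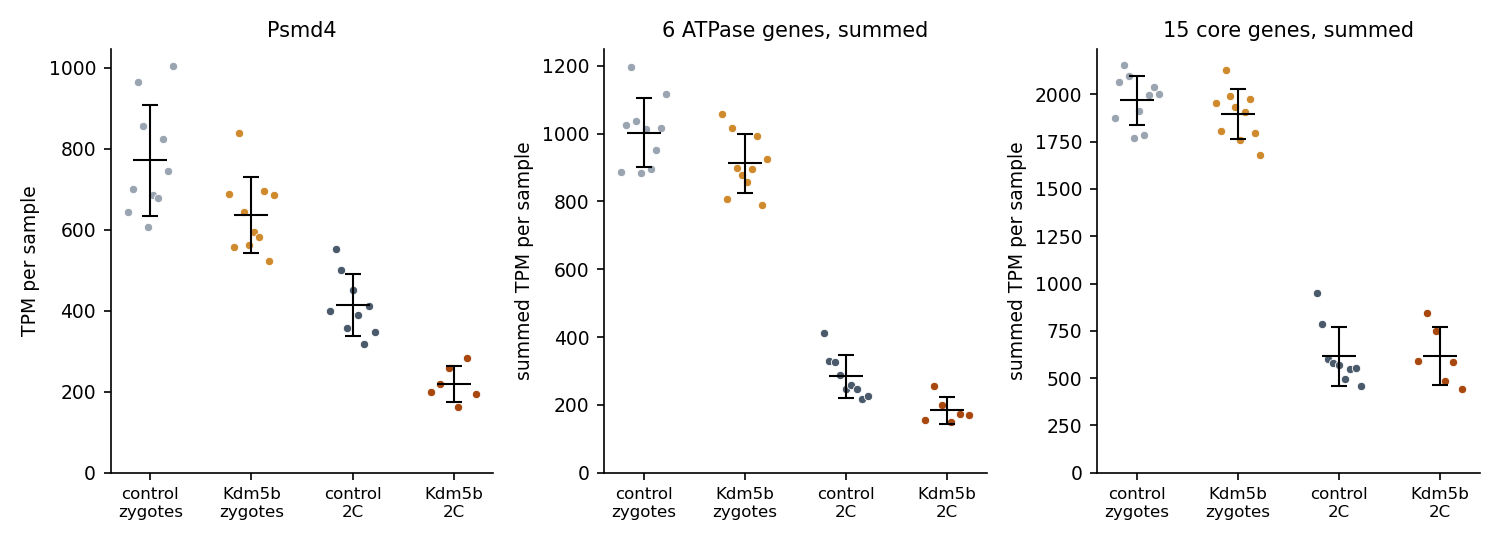
TPM of Psmd4, summed TPM of the 6 ATPase genes and summed TPM of the 15 core genes in each sample (points) with the mean and SD of each group (bars). The Kdm5b 2C samples lie below all control 2C samples for Psmd4 and overlap with them for the ATPases and the core genes.

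The other regulatory genes did not pass singly with edgeR on the 2C samples. Of the 20 regulatory genes, Psmd4 included, 17 had a negative log2 fold change in Kdm5b 2C samples, with a median of -0.38 compared with 0.00 over all genes. In zygotes 17 of 20 were negative as well, with a median of -0.10, 5 of the 6 ATPases among them. In 2C samples the 6 ATPases were all negative, between -0.80 and -0.21. The 14 core genes tested had a median of 0.05, with 8 positive and 6 negative. At an unadjusted p under 0.05 there were 8 members, 7 lower and 1 higher, against 9.41% of all genes. Besides Psmd4 these were Psmd1, Psmc1, Psmc2, Psmc3, Psmd11 and Psmc3ip on the lower side and Psme4, with a log2 fold change of 0.22 (adjusted p = 0.510 in edgeR), on the higher. Psmd1 (Rpn2), the other large scaffold subunit, had 68.96, 107 and 152 TPM in control 2C and 51.6, 63.1 and 97.9 TPM in Kdm5b 2C samples (log2 fold change -0.63, SE 0.17, adjusted p = 0.244). Psmc3 had 22.8, 44.9 and 63.1 TPM against 23.4, 25.2 and 33.1 TPM (log2 fold change -0.74, SE 0.21, adjusted p = 0.248). In both genes the groups overlapped. With DESeq2 both were called along with Psmd4, but that tool called 0.702% of all genes lower, compared with 0.0245% in edgeR. When the strip was added to the model Psmd1 passed (adjusted p = 0.0275 in edgeR), where 1.51% of all genes were lower. The fit over all 35 samples called Psmc1, Psmc2, Psmc3, Psmd1, Psmd11 and Psmc3ip besides Psmd4, and 2.4% of all genes. Of the 9 markers of the 2C stage 8 had a negative log2 fold change in Kdm5b 2C samples (median -0.39) and of the 10 oocyte and zygote markers 8 a positive one (median 0.19), though none passed in edgeR and 2 and 0 had an unadjusted p under 0.05. Their part in the lower regulatory values was not tested.

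**Figure D5:**
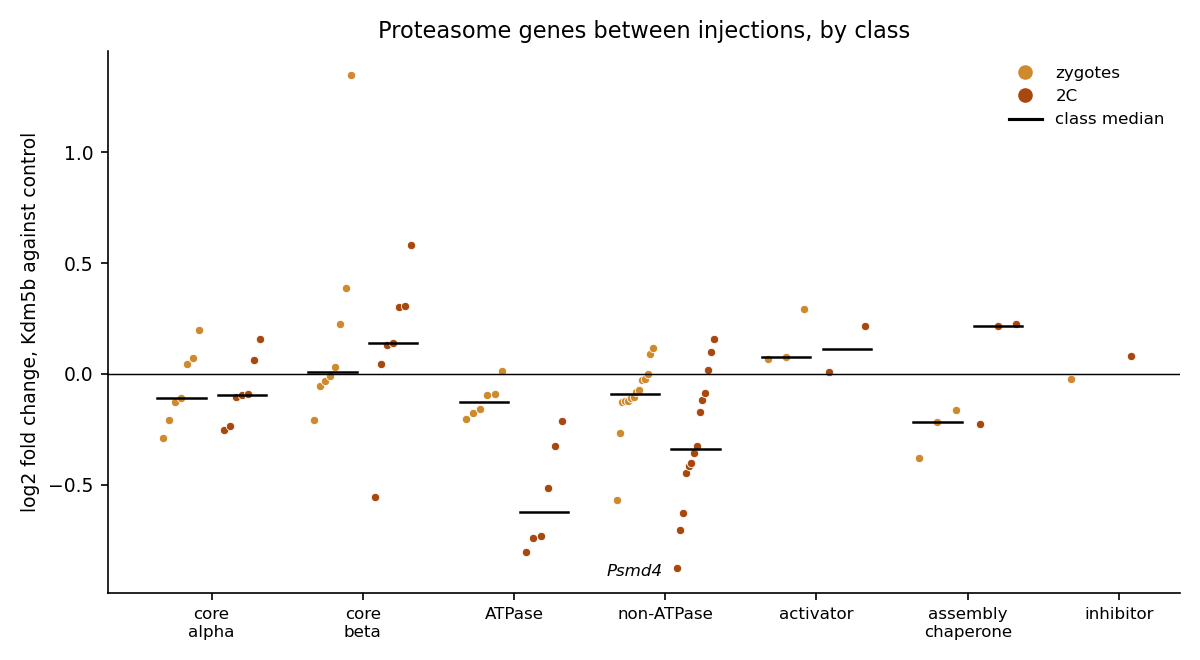
Log2 fold change of each tested member between Kdm5b and control embryos, by class, in zygotes and in 2C samples (points), with the median of each class (lines). The ATPases in 2C samples all lie below 0 with a median of -0.62, while the median of the core genes is 0.05.

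Summed over the ATPases, the level was 284 ± 62.9 TPM in control 2C (SD, n = 9) and 184 ± 39.1 TPM in Kdm5b 2C samples (SD, n = 6), and the ranges of 217 to 412 and 149 to 255 TPM overlapped. The ATPase sum also differed between the strips. Control 2C samples had 328 to 412 TPM in the first strip and 217 to 289 TPM in the other, while the 5 Kdm5b samples of the first strip had 149 to 255 TPM and the Kdm5b sample of the other 172 TPM. The summed core level was 616 ± 156 TPM in control and 617 ± 155 TPM in Kdm5b 2C samples, but it differed between the strips too, so that these means rest on unequal numbers per strip. In the first strip the 3 controls had 601 to 951 TPM and the 5 Kdm5b samples 442 to 845 TPM. In the other the 6 controls had 458 to 581 TPM and the single Kdm5b sample 586 TPM.

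An interaction term fitted to the 35 samples asked whether the injection acted differently in zygotes and 2C embryos. edgeR called 0 of 44 members higher and 0 lower, with 0.00726% and 0.102% of all 13778 genes called. At an unadjusted p under 0.05 there were 8 members, against 9.1% of all genes. Psmd4 had a log2 difference of -0.61 (SE 0.16, adjusted p = 0.136 in edgeR). With DESeq2 it passed (adjusted p = 0.0430), as the only member and with 0.501% of all genes lower. voom called 0 members, with 0.0508% of all genes lower. Psmd4 also passed with the replicate numbers as a block (log2 difference -0.64, adjusted p = 0.0453 in edgeR), a fit whose share of all genes is not given here. The 6 ATPases were all negative, with a median of -0.49 compared with -0.01 over all genes.

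Genes that work with the proteasome were followed from lists. Of the other components, the ubiquitin receptor Adrm1, the deubiquitinases Uchl5 and Usp14, the maturation factor Pomp and AI314180, the earlier name of the adaptor gene Ecpas, were in the table. All 5 fell in control 2C samples, with log2 fold changes from -1.41 to -0.45, where 25.4% of all genes were lower, and 4 of them fell in Kdm5b 2C samples, where 29.5% were. Adrm1 went from 134, 156 and 185 TPM in control zygotes to 37.5, 69.1 and 81.5 TPM in control 2C samples (log2 fold change -1.17, SE 0.12, adjusted p = 7.07e-09).

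AI314180 was also 1 of the 14 genes that were lower in Kdm5b than in control zygotes, with 433, 512 and 551 TPM in controls and 345, 392 and 482 TPM after Kdm5b injection. The groups overlapped (log2 fold change -0.29, SE 0.06, adjusted p = 0.0272 in edgeR). The call was lost in 8 of 20 fits that left out 1 sample, namely control replicate 3, 6, 8 or 10 or Kdm5b replicate 2, 4, 5 or 9 (adjusted p up to 0.0733 in edgeR) and in the fit over all 35 samples (adjusted p = 0.708). In 2C embryos its log2 fold change was -0.04 (adjusted p = 0.964).

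The polyubiquitin gene Ubb fell in control 2C samples, from 775, 984 and 1071 TPM to 424, 527 and 574 TPM (log2 fold change -0.80, SE 0.08, adjusted p = 3.82e-09). Of the 13 shuttle and segregase genes, 4 rose and 4 fell, which is close to the 26.8% and 25.4% of all genes tested. The segregase Vcp, which extracts ubiquitinated proteins, went from a median of 74.7 to 34.02 TPM (log2 fold change -1.20), while the shuttle factor Rad23b had medians of 440.4 and 532 TPM and rose (log2 fold change 0.35).

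Of 9 tested regulators of proteasome genes, 2 rose and 1 fell in control 2C samples, no larger a share than the 26.8% and 25.4% of all genes. Nfe2l1, which encodes NRF1, did not pass, with medians of 307 and 266 TPM (log2 fold change -0.04). Akirin2, which encodes a factor for the nuclear import of proteasomes, had medians of 1065 and 1034 TPM and did not pass either. Of the 5 tested partners of the immunoproteasome in antigen processing, B2m rose (log2 fold change 0.89) and the interferon-regulated transcription factor gene Irf1 fell, from a median of 104 TPM to 19.4 TPM (log2 fold change -2.19). These calls of 1 gene in each direction are also no larger a share than among all genes.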

How the data were processed

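RNA was measured by stranded RNA-seq (SMART-Seq) in 35 samples. The authors trimmed reads with fastp 0.21.0, aligned them with STAR 2.7.3a to GRCm38 and counted fragments per RefSeq gene with featureCounts 1.5.1, as their methods and processing notes state. The table they deposited holds raw counts (whole fragments, not normalized), with 0 rows lacking a gene name. The deposited repeat element counts were not used.

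From these counts TPM were computed with the table's exon lengths, and genes were tested with edgeR 4.0.16 (TMM, filterByExpr with a minimum count of 10, quasi-likelihood test, Benjamini-Hochberg adjustment over all genes tested) in R 4.3.3, with the Kdm5b row removed beforehand and only the groups compared in each fit. The interaction used all samples. Alternatives included DESeq2 1.42.0, limma 3.58.1 voom, other filters, a replicate block, the index strip, and leaving out each sample. Fits were tested on simulated data, and the results of those tests are not given here. Named genes were members called between stages with a log2 fold change beyond 1 in either direction, the 3 higher and 3 lower members with the smallest p in each comparison (where none passed, the member of smallest p), preset catalytic, activator, receptor and chaperone genes, the extremes of each class in level, and genes of the pathway lists. Other members are named to complete a class. Members and lists were chosen with earlier results of these data known. A gene of the pathway lists, and with it the counts over its list, is not reported here. Embryos were pooled across females before injection, so p-values measure the spread between samples. Counting error alone limits values near 0.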

Additional observations from a re-analysis of the deposited data

Results flagged for a closer look

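Within groups of 6 to 10 samples, 8 of 172 sets of TPM values held 1 sample far from the others by Dixon's criterion, or 4.65%, where chance gives about 1 in 20. All 8 outlying values were high. In control 2C samples Psma5 reached 24.5 TPM in replicate 1 (next highest 10.5), and the same sample had 67.7 TPM of Psmd12 (next 43.5). Psmd14 was at 33.00 TPM in replicate 4 (next 14.1), Psmb11 at 3.14 TPM in replicate 3 (next 1.16) and Psme2 at 10.4 TPM in replicate 6 (next 2.17). In Kdm5b 2C samples Psmc3 was at 33.1 TPM in replicate 4 (next 26.9), and Psme1 at 3.04 TPM in replicate 2 with 0 TPM in the others. In Kdm5b zygotes Psmg3 was at 25.6 TPM in replicate 3 (next 11.99).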

How the results depend on the processing

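No called value of a named gene changed its sign. Among log2 fold changes that did not pass, Psmb5 in controls became 0.317 with single intact embryos only and lay from -0.361 to 0.0609 with 1 sample left out. Psmd9 in controls became 0.0167 with DESeq2 size factors in edgeR, 0.0169 with DESeq2, 0.0155 with a mean of at least 50 counts and 0.0294 with voom (-0.113 to 0.0674 with 1 sample left out). In Kdm5b embryos it became 0.00194 with DESeq2 size factors and 0.00205 with DESeq2 (-0.127 to 0.0430). Psmd13 became -0.133 in controls with voom, and -0.00372 in Kdm5b embryos with single intact embryos only (-0.00372 to 0.563 with 1 sample left out), where Psme2 became 0.0119 (-0.580 to 0.169). Between the stages the counts of members that rose became 1 in controls and 1 in Kdm5b embryos when an absolute log2 fold change over 1 was also required, and otherwise stayed within 1.5 times of the reported counts. Leaving out 1 sample gave 4 to 4 higher and 33 to 33 lower members in controls and 3 to 4 higher and 33 to 34 lower in Kdm5b embryos. In Kdm5b embryos Psmb6 no longer passed with voom (log2 fold change 0.39), with the replicate block (0.49) or without Kdm5b 2C replicate 1, 2 or 3 (0.41 to 0.43), and Psmg4 was lost with voom, the fit over all samples and the replicate block. Psmd2 was lost in controls with single intact embryos only. In zygotes the injection gave 0 member calls in every fit, though few of all genes were called either (0.687% lower with DESeq2). In 2C embryos the count of lower members, 1 in the report, was 0 with the fold limit, 0 with single intact embryos only, 3 with DESeq2 (0.702% of all genes lower, compared with 0.0245% in the reported fit), 2 with the index strip as a covariate (Psmd1 and Psmd4, 1.51% of all genes) and 7 in the fit over all 35 samples (Psmc1, Psmc2, Psmc3, Psmc3ip, Psmd1, Psmd11 and Psmd4, 2.4% of all genes), and 0 to 1 with 1 sample left out. The cause of these differences between fits was not tested. The interaction gave 1 lower member, Psmd4, with DESeq2 and 1 with the replicate block (adjusted p = 0.0453 in edgeR), and 0 with any 1 sample left out. The share of all genes called with that block is not given here, so the call cannot be set against it.

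The replicate numbers were used as a block as an alternative only, since same-numbered samples did not deviate together (0 pairs correlated over 0.1 in any comparison). Other calls under the block are as given above. On the scale of CPM with TMM factors the ratio of summed levels was 0.440 instead of 0.381 for the regulatory genes between the stages in Kdm5b embryos, and for the activators 1.89 instead of 1.72 in controls and 1.98 instead of 1.71 in Kdm5b embryos. For the activators in Kdm5b against control 2C samples the ratio of 1.03 became 1.09 on that scale and fell to the other side of 1, at 0.971, with the Kdm5b row kept in the TPM total. Of the values of single named genes, 750 of 779 under other settings and 1474 of 1506 with 1 sample left out kept their direction and side of the limit, and 10 and 17 changed sign. Genes near 0, such as Psmb5, Psme1, Psme2, Psmg2 and the inducible subunits, rest on few fragments, and no difference between groups is reported for them. Whether depth is the reason was not tested.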
